A study of Drosophila melanogaster with 5 samples.

Results

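The genes described are 44 components of insulin, TOR, AMPK and FOXO signalling, chosen by gene symbol and not by their measured values. Of these, 27 had a value among the 10124 genes measured, and 17 were not analysed here. The arrays compared whole females lacking the insulin-producing cells (IPC), a small group of neurosecretory brain cells, with control females. In the IPC-deficient flies the InsP3-Gal4 driver expressed the cell death genes RPR and HID, and in the control flies the same driver expressed LacZ. All flies were 14 days old and had been given yeast paste as sole food for 48 h. Total RNA of both groups was hybridised together on 5 two-colour arrays from 2 biological repeats, with the IPC-deficient RNA in Cy5 on arrays 1 and 2 and in Cy3 on arrays 3, 4 and 5. The labels name the driver and the transgenes but give neither the extent of the ablation nor the number of flies pooled.

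Insulin-like peptides bind the insulin receptor, which acts through the docking protein Chico, the lipid kinase PI3K and the kinases Pdk1 and Akt. Akt phosphorylates FOXO, which is then held in the cytoplasm by 14-3-3 proteins, and relieves the Tsc1-Tsc2 block on TOR complex 1, the kinase complex that promotes growth when nutrients are plentiful. AMPK, the sensor of low cellular energy, opposes TOR complex 1, and FOXO in the nucleus induces genes of stress resistance and fat use. Most of this control acts on proteins through phosphorylation, which transcript arrays do not measure.

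Each probe carries 1 signed fold change in the authors' deposited table, the same on each array that had a value, so a gene has 1 value and no spread between arrays or flies. Values are given as log2 of that fold, with 0 for equal levels in both RNAs. For each gene, the coverage is the number of spots with a value, at most 10 (2 copies on 5 arrays). The error available is the SD between probes that target the same gene. It was 0.18 on the log2 scale, pooled over 647 genes with 1437 probes on all 5 arrays, and 0.56 with the less covered probes included (1167 genes, 2649 probes). Below, the SD between probes means 0.18, and 0.56 is applied to the 9 members with a probe missing from an array. Since 0.56 also pools the well covered probes, the SD of the less covered ones alone is larger, and was not computed. Both SDs cover differences between probes only. A fold of 1.5 or more served as the threshold, and no test was possible. Which RNA is the numerator is not stated. A negative value is likely lower in IPC-deficient flies, since the design text names these flies first and tobi, an alpha-glucosidase gene named as a target of brain insulin, stood at -4.10 (17.1-fold, 9 spots). The sign of tobi is part of that reading.

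None of the 27 measured genes reached 1.5-fold, against 5.35% of all measured genes. The widest difference was 1.25-fold. With the sign as read, 13 genes lay above 0 and 14 below, and their median log2 value was -0.020, against -0.0077 over all genes. The median distance from 0 was 0.087 on the log2 scale, against 0.11 over all genes. Lst8, Sin1 and 14-3-3epsilon lay further from 0 than 0.18, which is 11.1% of the measured members, against 32.2% of all genes. Beyond 0.56 lay 0 members, against 5.82% of all genes, so Lst8, which is missing from some arrays, lay within the SD that applies to it. For the 18 members with each measured probe on all 5 arrays, 2 lay beyond 0.18 (11.1%), against 27.6% of 6564 such genes. Of those 6564 genes, 2.68% reached 1.5-fold, against 0 of the 18 members. With probes of at least 5 filled spots, 0 of 25 members reached 1.5-fold, against 3.33% of genes, and 0 of 27 reached 2-fold, against 2.16%. These shares describe the list and are not a test of it.

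**Figure D1:**
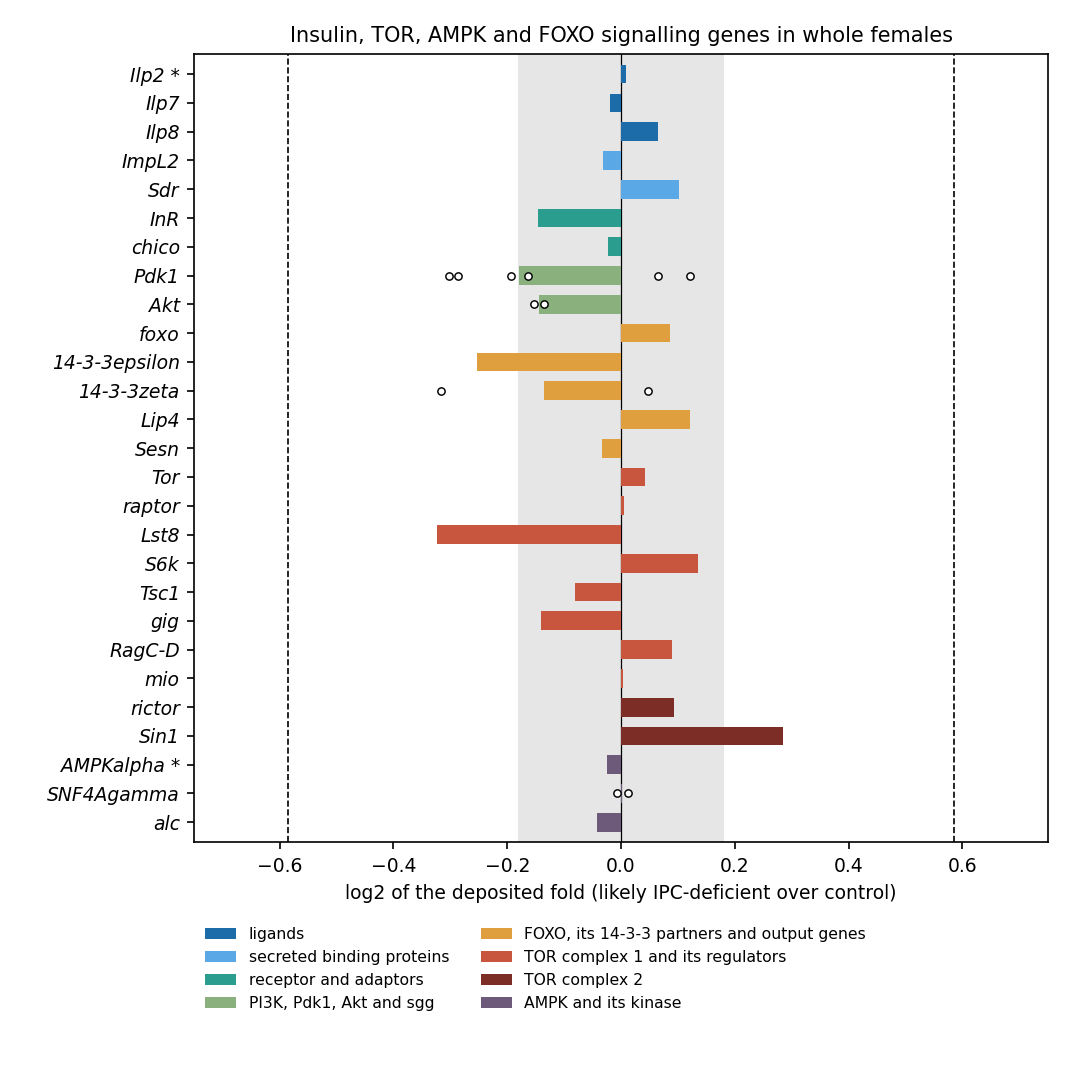
Log2 of the deposited fold (x axis, likely IPC-deficient over control) for the 27 measured signalling genes, coloured by role. Bars are gene values, open circles are the single probes of genes with several probe values, the grey band is the SD between probes (0.18), dashed lines mark 1.5-fold, and an asterisk marks genes with at most 4 filled spots. Every bar ends well inside the dashed lines, and only 14-3-3epsilon, Lst8 and Sin1 leave the grey band.

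Among the ligands, Ilp2, an insulin-like peptide made by the ablated cells, had a log2 value of 0.0093, a 1.01-fold difference. This value came from 4 spots, 1 each on arrays 1, 3, 4 and 5, with no value on array 2. Ilp2 was the only one of the 3 listed products of the insulin-producing cells (Ilp2, Ilp3 and Ilp5) with a value, and at this coverage it gave no check of the ablation. In whole flies, fewer cells of a type and less RNA per cell cannot be told apart. Ilp7, which is made by neurons of the ventral nerve cord, stood at -0.020 from 8 spots, and Ilp8, a relaxin-like peptide released by damaged discs in larvae, stood at 0.066 from 9 spots. Each of these ligand values lay within the SD between probes. Ilp1, Ilp3, Ilp4, Ilp5 and Ilp6 were not analysed here.

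Both genes for secreted proteins that bind insulin-like peptides were measured. ImpL2, an antagonist that binds the peptides outside the cell, stood at -0.031 with all 10 spots filled. Sdr, a secreted decoy of the insulin receptor, stood at 0.10 from 6 spots and had no value on array 5. The pair lay on opposite sides of 0 and within the SD between probes.

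From the receptor inwards, the 4 measured genes up to Akt all lay below 0, with a median of -0.15 and none beyond the SD between probes. Over all genes, 51.9% lay below 0. The insulin receptor gene InR, which FOXO is known to induce, stood at -0.15 from 8 spots, a 1.11-fold difference, and 40.6% of all genes lay further from 0. The docking protein gene chico stood at -0.023 with all 10 spots filled, and its difference from InR was smaller than the SD between probes. Akt was measured by 2 probes with all spots filled, at -0.14 and -0.15, which differed by 0.018. Pdk1, which encodes the kinase that activates Akt, was measured by 6 probes with a median of -0.18 and a mean of -0.13 ± 0.18 (SD, n = 6 probes). Of these probes, 4 lay between -0.30 and -0.16 and the other two stood at 0.065 and 0.12. The probes of Pdk1 spread across 0, and those of Akt did not. Lnk, dock, Pi3K92E, Pi3K21B and sgg were not analysed here.

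At the FOXO step, the transcription factor gene foxo stood at 0.087 from 5 spots on arrays 1, 2 and 3, with none on arrays 4 and 5. 14-3-3epsilon, whose product binds phosphorylated proteins including FOXO, stood at -0.25 with all 10 spots filled, a 1.19-fold difference that 20.1% of all genes exceeded. Its relative 14-3-3zeta had a gene value of -0.13, but its probes stood at -0.32 from 6 spots and 0.047 from 5 spots. Both probes are missing from some arrays, their gap of 0.36 lies within the SD of 0.56, and related genes can also cross-hybridise on spotted probes, so the gene value is uncertain. Of the genes that FOXO is known to induce, the lipase gene Lip4 stood at 0.12 from 7 spots and Sesn, which encodes the TOR inhibitor sestrin, at -0.033 with all 10 spots filled. These values and that of InR, also a FOXO target, lay within the SD between probes, so no side can be read for the 3 measured targets. Thor, srl and Myc were not analysed here.

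TOR complex 1 and its regulators lay on both sides of 0, with 5 of 8 measured genes above it and a median of 0.0042. The kinase gene Tor stood at 0.043 from 8 spots and raptor, the scaffold that defines the complex, at 0.0049 from 7 spots, both close to equal levels. Lst8, a subunit of both TOR complexes, stood furthest from 0 of all the members, at -0.32 (1.25-fold), and 13.7% of all genes lay further out. It was measured in 5 spots on arrays 1, 3 and 4, with no value on arrays 2 and 5, so it was also among the least covered members and lay within the SD of 0.56. S6k, the kinase that TOR complex 1 phosphorylates to raise protein synthesis, stood at 0.14 with all 10 spots filled.

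The genes of the inhibitory Tsc complex were both below 0. Tsc1 stood at -0.081 from 10 spots and gig, which encodes Tsc2, at -0.14 from 9 spots, and each lay within the SD between probes. Of the genes that carry the amino acid signal to TOR complex 1, the Rag GTPase gene RagC-D stood at 0.090. Its 2 probes held values equal to 5 decimals and count as 1 value. The gene mio, a component of the GATOR2 complex, stood at 0.0034 from 9 spots. Lobe, Rheb and RagA-B were not analysed here, and 2 probes with the symbol L under different gene identifiers were not assigned to Lobe.

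Both measured genes specific to TOR complex 2, which phosphorylates Akt, were above 0. Sin1 stood at 0.28 (1.22-fold) with all 10 spots filled, the highest value of any member, and 16.9% of all genes lay further from 0. The complex's defining subunit gene rictor stood at 0.093 from 9 spots. Sin1 lay beyond the SD between probes and rictor within it, and each rests on 1 probe.

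The AMPK subunit genes all stood close to equal levels. The catalytic subunit gene AMPKalpha stood at -0.024, but from 4 spots on arrays 1 and 3 alone. The gamma subunit gene SNF4Agamma had probes at 0.013 and -0.0078, and the beta subunit gene alc stood at -0.042 with all 10 spots filled. Each of the 3 subunit genes lay well within the SD between probes, 1 of them at low coverage. The upstream kinase gene Lkb1 was not analysed here.

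Coverage differed between arrays. Counting the best covered probe of each gene, all 27 members had a spot with a value on arrays 1 and 3, whereas 23 did on array 2, 24 on array 4 and 23 on array 5. Both copies were filled for 16 members on array 2 and for 24 on array 1. The share of all features with a value was likewise higher on array 3 (86.6%) and array 1 (77.5%) than on the others (63.8% to 67.2%), and arrays 1 and 3 carried the IPC-deficient RNA in different dyes. Of the members, 12 had a probe with all 10 spots filled (44.4%, against 41.2% of all genes), and 2, Ilp2 and AMPKalpha, had at most 4 filled spots (7.41%, against 14.3%). The members next above that limit were foxo and Lst8, with 5 spots each.

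**Figure D2:**
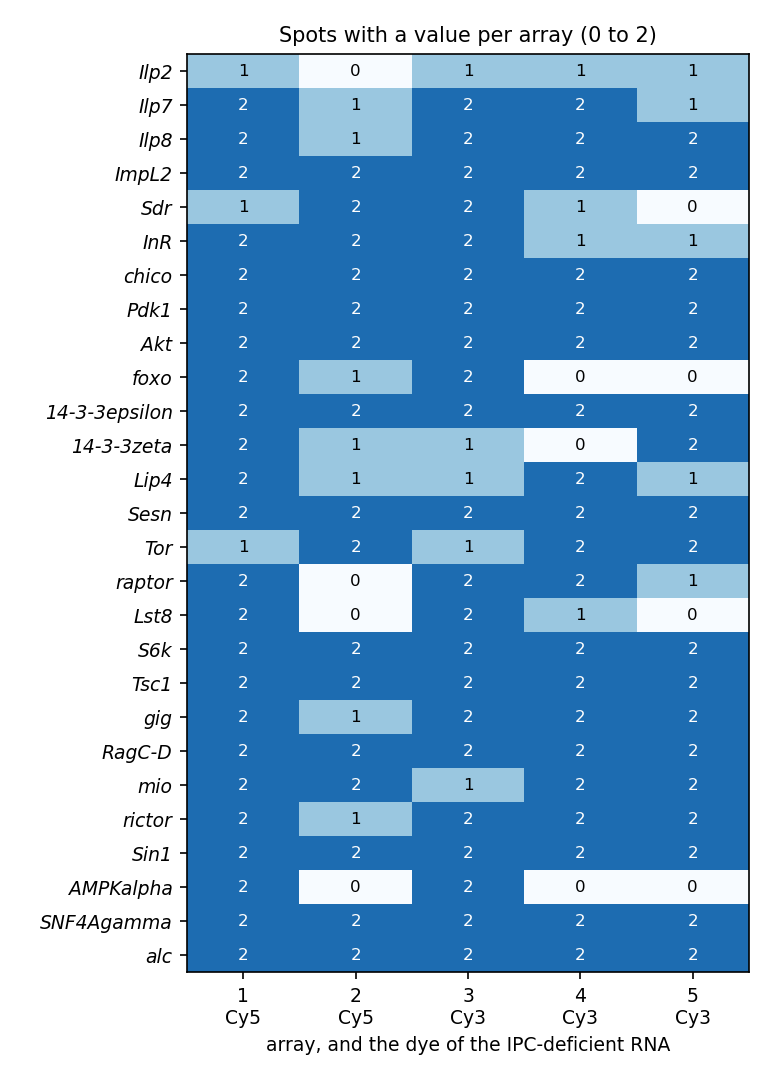
Number of spots with a value (0, 1 or 2 copies) for the best covered probe of each measured gene (rows) on each array (columns), with the dye of the IPC-deficient RNA under the array number. Ilp2, raptor, Lst8 and AMPKalpha are empty on array 2, and foxo and AMPKalpha are empty on arrays 4 and 5.

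**Figure D3:**
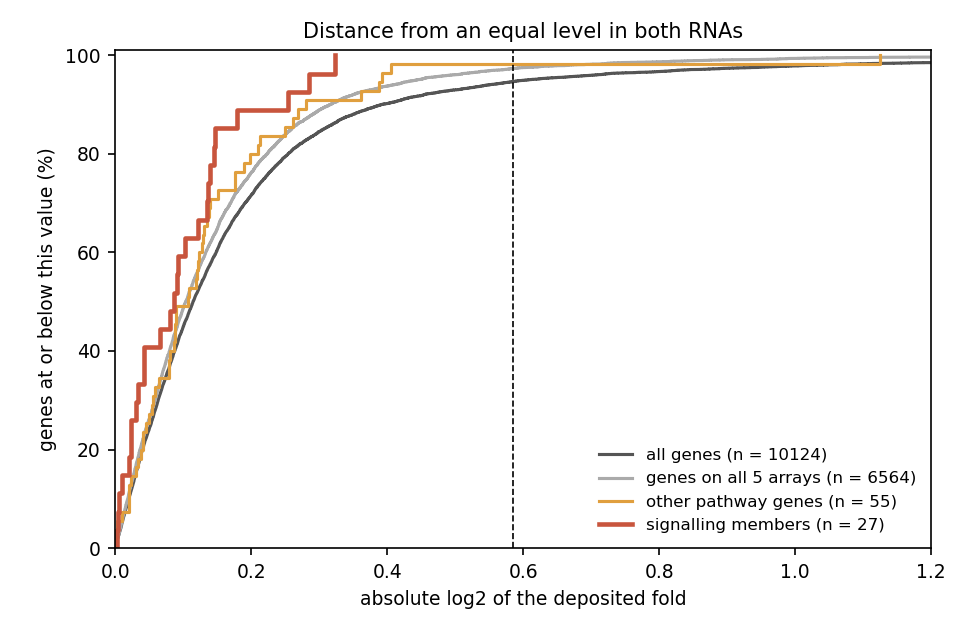
Cumulative share of genes (y axis, %) at or below a given distance from equal levels (x axis, absolute log2 of the deposited fold), for all 10124 genes, the 6564 genes on all 5 arrays, 55 other genes of the same pathways and the 27 members. The dashed line marks 1.5-fold, and the x axis ends before the most extreme genes. The curve of the members reaches 100% at 0.32, left of the dashed line.

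Of 70 other genes listed for the same pathways, 55 had a value. At 1.5-fold, 1 lay on the negative side (3.11% of all genes did) and 0 on the positive side (2.24% of all genes). Their median was -0.00092 and their median distance from 0 was 0.11, against 0.11 over all genes. The gene beyond the threshold was Ide, which encodes a metalloproteinase that degrades insulin, at -1.12 (2.18-fold) with all 10 spots filled.

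Among the further genes of insulin and PI3K signalling, 5 of 6 lay below 0 (51.9% of all genes did), with a median of -0.13. The PP2A regulatory subunit gene wdb, whose product is known to act on Akt, stood at -0.28. Another PP2A subunit gene, tws, stood at -0.39 from probes at -0.89 and 0.10, which disagreed by more than the SD between probes. For TORC1 nutrient sensing the values spread around 0, with 9 of 15 genes above it and a median of 0.034. In this list the gene value of slif, -0.081, came from 3 probes between -0.31 and 1.77, of which the highest lay beyond 1.5-fold. Its value is therefore uncertain. The Ragulator subunit gene Lamtor3 stood at 0.21 and Tctp, which is known to act on Rheb, at 0.19. Of 6 genes downstream of TOR, 4 lay below 0, with the cap-binding factor gene eIF4E1 at -0.18 over probes from -0.23 to 0.024 and the autophagy gene Atg13 at -0.14.

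All 6 measured genes listed with LKB1 and AMPK lay below 0 (-0.14 to -0.00046), against 51.9% of all genes. Each lay within the SD between probes, so no side can be read for single genes. The gene bigmax, whose product is the partner of the sugar sensor Mondo, stood at -0.14 and the salt-inducible kinase gene Sik3 at -0.13. The 4 genes of the list named known FOXO-induced genes were divided, 2 above and 2 below 0. The gluconeogenesis gene Pepck1 stood at 0.11 and the phosphatase gene puc at -0.037. The gene daw lay furthest from 0 of this list, at 0.20 from 5 spots. Whether FOXO induces each gene of this list was not checked here, so no FOXO response can be read from the split. For the control and processing of insulin-like peptides, 12 of 18 genes lay above 0. Akh, the adipokinetic hormone gene, whose product mobilises stored fuel and opposes insulin, stood at 0.39 (1.31-fold), and Lst, which encodes limostatin, a suppressor of insulin-like peptide release, at -0.27. Both had all 10 spots filled.

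**Figure D4:**
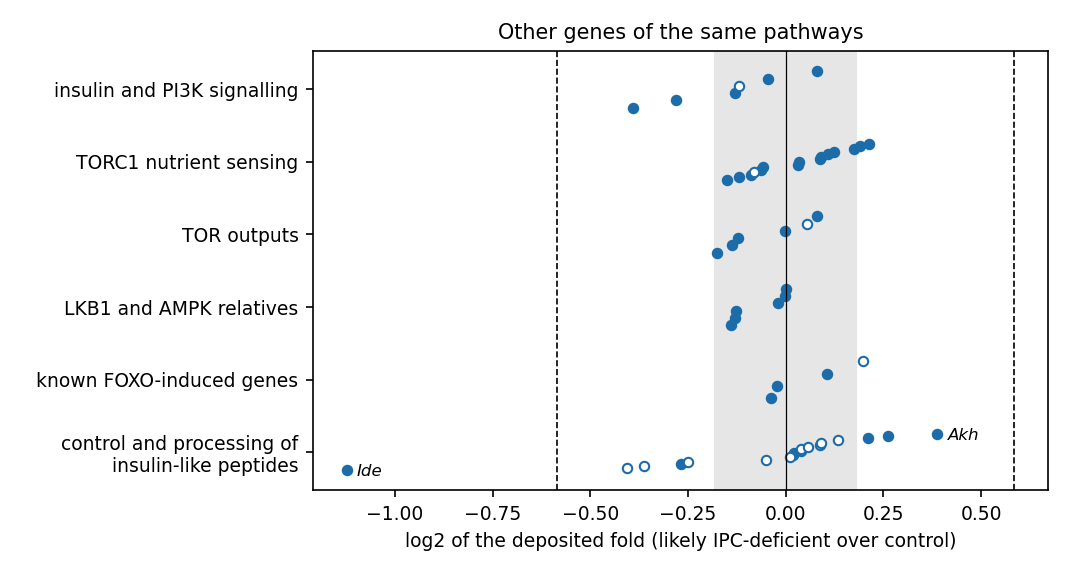
Log2 of the deposited fold (x axis, likely IPC-deficient over control) for 55 other genes of the same pathways, 1 row of points per list. Filled points are genes with each measured probe on all 5 arrays and open points are less covered genes, the grey band is the SD between probes and dashed lines mark 1.5-fold. Ide at -1.12 is the only point beyond the dashed lines, and Akh at 0.39 is the highest.

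Markers of other cells stood as follows. The 6 measured of 7 male accessory gland genes were all below 0 (-1.32 to -0.38), against 51.9% of all genes. The flies were female, so these genes do not mark a tissue of theirs, and the source of their values was not tested. Of these, 3 reached 1.5-fold on the negative side (3.11% of all genes did), each from at most 4 spots. Acp26Aa and Acp53Ea, with values on all 5 arrays, stood at -0.42 and -0.38. Of the 6 fat body genes, 5 lay below 0 (-0.35 to -0.023), against 51.9% of all genes. The other, Fbp1, stood at 0.56 from 3 spots. The 3 measured of 5 neuron genes ranged from 0.030 to 0.48, and the 3 measured of 5 female germ line genes from -0.24 to 0.34. The part of fat body, neuron and germ line cells in the members' values was not tested.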

How the data were processed

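RNA from whole IPC-deficient and control flies was hybridised on 5 two-colour arrays. Each array was scanned 3 times and all hybridisations entered 1 normalization, per the labels' design text; the sources used here give neither the background correction, nor the normalization method, nor the array that held each repeat. The authors' deposited values are a score, a signed fold change with no absolute value under 1, and in none of 27376 features with several columns filled did the columns differ by more than 1e-06. A limma model over arrays could therefore not be fitted.

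Each score was turned into log2 of its size with its sign kept. Spot copies were joined into 16224 probes, of which 14972 had a value. A single gene symbol was given for 12536 probes, several for 3 and none for 3685. Names were brought up to date through the Entrez identifier (12068 probes) or transcript accession (113) with a RefSeq table of Release 6, and 355 were kept. The median over probes gave the value of a gene, and probes equal to 5 decimals entered it once. Medians of the 24 array blocks lay between -0.024 and 0.014, and column medians between -0.00050 and 0.0066. The number of arrays limits the precision. The joining of spots and probes was tested on simulated data. The members, lists, 1.5-fold threshold and naming rule (each member; in the other lists each gene beyond 1.5-fold and up to 2 others furthest from 0 among genes on all 5 arrays) were chosen with earlier results of these data known. Outside this rule, slif was named for the spread of its probes and daw as the furthest of its list from 0. No sequences were used here. Python 3.11.15, numpy 2.4.6, pandas 2.3.3 and matplotlib 3.10.9 were used.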

Additional observations from a re-analysis of the deposited data

How the results depend on the processing

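The count of 0 members beyond 1.5-fold held under each alternative tried: a 2-fold threshold, centring of each column, probes with at least 5 filled spots (25 members), members on all 5 arrays (18), the mean over probes, the probe with the most filled spots, the sign turned, symbols as annotated, and each array left out. The 2-fold threshold, the sign turned and the subset on all 5 arrays could not change a count of 0, so they add no information on it. No single member probe lay further from 0 than that of Lst8 (-0.32). The mean over probes, the probe with the most spots and the spot filter could therefore not reach 1.5-fold either. Centring moved no member by more than 0.0045, so it adds little. The median distance from 0 ranged from 0.086 to 0.090. The median ranged from -0.023 (each column centred) to -0.020, and was 0.020 with the sign turned. Leaving out an array changed no value, since the table holds 1 combined value per probe, so it says nothing about the spread between arrays. With the probe of most spots, 14-3-3zeta moved from -0.13 to -0.32, just beyond 0.18 but within the 0.56 that applies to it. No other member moved by more than 0.18 in that setting. Turning the sign would reverse every direction in the text. Both RNAs share each array, but no paired analysis was possible because the deposited values are combined over the arrays. Differences under about the SD between probes (0.18, or 0.56 where a probe is missing from an array) cannot be read for single genes, and values from at most 4 spots are the least certain.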
